A study of Mus musculus with 6 samples.

Results

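The 9 genes followed here belong to bone matrix and osteoblast maturation: Sp7 and Dlx5, which encode transcription factors of the osteoblast lineage, Sparc, Ibsp, Spp1 and Bglap, which encode proteins of the bone matrix, and Ifitm5, Phex and Dmp1, which are expressed by mineralizing osteoblasts and osteocytes. They were taken by symbol, and all 9 were among the 30406 genes listed in every library. Spp1 (osteopontin) is also made by macrophages and osteoclasts, so its transcripts were followed separately in each of these populations.

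Nuclei came from the tibial periosteum of wild-type C57BL6 mice (the substrain C57BL/6ScNj per the study methods), 12 weeks old with males and females mixed, and were profiled by droplet-based single-nucleus RNA sequencing. The 6 libraries were 2 of uninjured periosteum, 2 of periosteum with hematoma at day 3 after tibial fracture, 1 at day 5 and 1 at day 7. Each library pooled the tibias of several mice, 4 for uninjured bone and 4 to 9 after fracture, and no animal can be told apart within a pool. The marrow was flushed and the periosteum scraped from the cortex, hematoma was present in the fracture samples only, and nuclei were sorted on a DNA stain before loading.

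Osteoblasts build bone in steps. Sp7 (osterix) and Dlx5 act early in commitment, type I collagen, Sparc (osteonectin) and Ibsp (bone sialoprotein) are laid down as the matrix forms, and Bglap (osteocalcin) and Ifitm5 mark osteoblasts that are mineralizing it. As osteoblasts become embedded as osteocytes they make Dmp1 and Phex, an endopeptidase of the cell surface that takes part in phosphate control. In a fracture callus, bone forms directly from the periosteum at the edges and through cartilage near the break, while macrophages and osteoclasts clear and resorb tissue.

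Ibsp, Spp1 and Dmp1 are neighbours in the genome. With Mepe and Dspp they form the cluster of SIBLING genes, acidic phosphoproteins of bone and tooth, which spanned 270.3 kb at chr5:104170712-104441050 on the forward strand of GRCm38 and held 5 protein-coding genes. Ibsp lay at chr5:104299171-104311469, Dmp1 at chr5:104202613-104214102 and Spp1 at chr5:104435118-104441050. The osteocalcin genes Bglap, Bglap2 and Bglap3 lay within 15.8 kb at chr3:88368616-88384464 on the reverse strand. Of the 91-base windows of their exons, 43.2% of those of Bglap and 62.7% of those of Bglap2 occurred in another osteocalcin gene, against 1.68% for Bglap3, so the values of Bglap depend on how shared reads were assigned. Phex, at chrX:157162075-157415312 on the reverse strand, was the longest of the 9 genes, with 2.48% of its 253238 bases in exons, and intronic reads were counted. Sp7 lay at chr15:102356606-102367182, Dlx5 at chr6:6877805-6882085, Sparc at chr11:55394500-55423183 and Ifitm5 at chr7:140948958-140950291, all on the reverse strand. A gene model on the same strand overlapped Spp1 (Gm42793), another overlapped Ifitm5 (Gm45717) and a pair overlapped Phex (Gm25795, Gm15172), and reads in the overlap cannot be told apart. Promoters of 7 of the 9 genes were present in the RefSeq table of GRCm38.p6. The stretches below are the 250 bases before a start site of Spp1, Dmp1 and Bglap, and the last 30 bases before that of Ibsp, shown because these 4 genes of the mineralizing matrix took different courses. Capitals mark AACCACA, the core motif of RUNX factors, and TATAAA, the TATA box, on either strand.
Spp1, chr5:104434861-104435110, forward strand: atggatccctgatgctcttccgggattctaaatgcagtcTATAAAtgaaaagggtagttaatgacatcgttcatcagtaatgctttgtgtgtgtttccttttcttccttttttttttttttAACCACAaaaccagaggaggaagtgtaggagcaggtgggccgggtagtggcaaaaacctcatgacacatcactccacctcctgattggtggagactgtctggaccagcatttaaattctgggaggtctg
Dmp1, chr5:104202367-104202616, forward strand: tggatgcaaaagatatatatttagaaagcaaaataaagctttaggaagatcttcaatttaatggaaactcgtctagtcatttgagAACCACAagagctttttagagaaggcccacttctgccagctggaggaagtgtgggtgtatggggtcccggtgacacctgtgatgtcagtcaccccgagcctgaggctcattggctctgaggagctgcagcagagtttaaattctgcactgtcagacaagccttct
Ibsp, chr5:104299257-104299286, forward strand: ggTTTATAgtcagcaagagcaagtgaatga
Bglap, chr3:88384467-88384716, reverse strand: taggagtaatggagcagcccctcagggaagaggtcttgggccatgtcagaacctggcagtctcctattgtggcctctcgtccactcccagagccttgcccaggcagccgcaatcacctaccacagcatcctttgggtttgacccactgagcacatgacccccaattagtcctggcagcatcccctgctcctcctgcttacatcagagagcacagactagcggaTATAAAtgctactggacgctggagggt
The RUNX motif began at position -129 of Spp1 and -165 of Dmp1, counted back from the start site, and the TATA box at -28 of Ibsp, -27 of Bglap and -211 of Spp1. Among 32851 mouse promoters of the same length, 4.396% held the RUNX motif and 12.4% the TATA box. Neither motif was found in the windows of Sparc, Phex and Ifitm5 or at a further start of Spp1 and of Dmp1. A match is a run of letters and was not tested as a binding site.

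The authors deposited raw counts of unique molecular identifiers (UMIs, each standing for 1 captured transcript) for 13551 barcodes with 55293921 UMIs, between 1499281 and 29796296 per library. After filtering and removal of muscle nuclei, 6418 nuclei remained, 355 to 2113 per library. Populations were rebuilt by clustering and named from marker genes, none of the 9 genes was used to cluster or to name, and the names carry the suffix "-like" since they may differ from those of the study. Levels are given per 1000000 UMIs of the summed nuclei (CPM) with exact Poisson 95% intervals, which cover counting error only. Pairs of libraries shared between 0 and 7 barcodes. Day 3 replicate 2 stood apart by RNA of immune cells: only 124 of its 457 stromal nuclei held no UMI of the macrophage markers or Ptprc, against 106 of 131 in day 3 replicate 1.

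Osteoblast-like nuclei formed a single cluster of 391 nuclei, in which the osteoblast markers Runx2, Alpl, Smpd3, Mmp13 and Col24a1 were at their highest level among 15 populations and Pth1r was at its next highest, after chondrocyte-like nuclei. The uninjured libraries held 6 and 115 of them, those of day 3 held 7 and 28, and days 5 and 7 held 177 and 58. Median depth ranged from 822 UMIs per nucleus in uninjured replicate 1 to 3233.5 in day 3 replicate 2, and was 949, 2369 and 917 in uninjured replicate 2, day 5 and day 7. Uninjured replicate 1 and day 3 replicate 1 held too few of these nuclei for most genes, so levels in resting bone rest mainly on uninjured replicate 2. Transcripts of the muscle gene Ttn were at 1535 CPM in osteoblast-like nuclei of uninjured replicate 2 and at 31.9 CPM at day 5. The 6 macrophage markers summed to 704 CPM in those of day 3 replicate 2, with none at 0, against 40.5, 45.6 and 39.3 CPM in uninjured replicate 2, day 5 and day 7. The part of this RNA in the levels below was not tested.

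Sp7 was detected in osteoblast-like nuclei of every library. Its level was 157 CPM (107 to 223) in uninjured replicate 2, 605 CPM (339 to 998) and 454 CPM (355 to 573) at day 3, 303 CPM (262 to 348) at day 5 and 183 CPM (100 to 307) at day 7. Both day 3 libraries lay above the others, leaving out uninjured replicate 1 with 2 UMIs, although the interval of day 3 replicate 1 overlapped that of day 5. The intervals of uninjured replicate 2 and day 7 overlapped as well. The ratio of day 5 to uninjured replicate 2 was 1.93, with an exact interval of 1.32 to 2.91. The day 7 level was 347 CPM when libraries were clustered without integration. Dlx5 was far rarer, with 11 UMIs or 55.7 CPM in uninjured replicate 2, 0 and 2 UMIs at day 3, 8 UMIs or 12.2 CPM at day 5 and none at day 7, where 3 UMIs would be 39.3 CPM. The ratio of day 5 to uninjured replicate 2 was 0.218 (0.0763 to 0.596), so this early regulator was lower in the callus library, while Sp7 was higher.

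Sparc, which binds collagen and calcium and is widely expressed in connective tissue, was detected in osteoblast-like nuclei at 522 CPM (426 to 633) in uninjured replicate 2, 968 and 1919 CPM at day 3, 1203 CPM (1121 to 1290) at day 5 and 811 CPM (622 to 1040) at day 7. All fracture libraries lay above uninjured replicate 2, although its interval reached those of day 3 replicate 1 (620 to 1440) and day 7, and the ratio of day 5 to it was 2.31 (1.88 to 2.86). Ibsp, which encodes a sialoprotein that nucleates mineral, was at 167 CPM (115 to 235) in uninjured replicate 2, 1129 CPM (750 to 1632) and 1267 CPM (1096 to 1456) at day 3, 1088 CPM (1009 to 1170) at day 5 and 497 CPM (352 to 683) at day 7. The day 3 and day 5 libraries did not differ beyond their intervals, day 7 lay below them, and every fracture library lay above uninjured replicate 2. Uninjured replicate 1 held 3 Ibsp UMIs, or 434 CPM with a wide interval (89.4 to 1267). The ratio to uninjured replicate 2 was 7.58 (5.22 to 11.3) for day 3 replicate 2 and 6.51 (4.59 to 9.53) for day 5. A single nucleus of day 3 replicate 2 held 90 of its 198 Ibsp UMIs, and without it the level was 774 CPM.

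Spp1 in osteoblast-like nuclei did not follow Ibsp, although both genes encode SIBLING proteins that bind mineral and integrins. It was at 380 CPM (299 to 476) in uninjured replicate 2, 121 CPM (24.95 to 354) and 409 CPM (315 to 523) at day 3, 178 CPM (147 to 213) at day 5 and 183 CPM (100 to 307) at day 7. The level at day 5 was 0.468 times (0.348 to 0.635) that of uninjured replicate 2, and days 5 and 7 did not differ beyond their intervals (ratio 1.03, 0.546 to 1.80). In uninjured replicate 1, 22 Spp1 UMIs were found in 2 of 6 osteoblast-like nuclei, 15 of them in a single nucleus, which gives 3179 CPM (1992 to 4813) on 6920 UMIs in all. Clustering without integration brought uninjured replicate 2 to 216 CPM and day 5 to 214 CPM, so the lower level at day 5 rested on that choice. Looser limits on mitochondrial and ribosomal RNA brought day 3 replicate 2 to 701 CPM.

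Bglap, which encodes the calcium-binding matrix protein osteocalcin, was highest in resting bone. Uninjured replicate 2 had 23 UMIs or 117 CPM (73.9 to 175) in 10 of 115 nuclei, day 3 replicate 2 had 2 UMIs, day 5 had 28 UMIs or 42.6 CPM (28.3 to 61.6) in 12 of 177 nuclei, and the other 3 libraries had none. The level at day 5 was 0.366 times (0.203 to 0.664) that of uninjured replicate 2. Without the nucleus with most UMIs in each, the levels were 77.0 CPM and 33.6 CPM. Under the looser limits day 3 replicate 2 was at 147 CPM and uninjured replicate 2 at 138 CPM, so the low level at day 3 rested on the filter. Its near copy Bglap2 had 14 UMIs in uninjured replicate 2 and 7 at day 5, the same order on fewer counts. Ifitm5 (BRIL), a membrane protein of mineralizing osteoblasts, had no UMI in 115 nuclei of uninjured replicate 2, where 3 UMIs would be 15.2 CPM, 2 UMIs in day 3 replicate 2 and 20 UMIs or 30.4 CPM (18.6 to 47.0) in 15 of 177 nuclei at day 5. No Ifitm5 UMI was found at day 7, where 3 UMIs would be 39.3 CPM, so a level like that of day 5 was not detectable at this depth.

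Phex stood out at day 5. Osteoblast-like nuclei held 2 UMIs or 10.1 CPM (1.23 to 36.6) in uninjured replicate 2, 0 and 12 UMIs at day 3, 306 UMIs or 465 CPM (415 to 521) at day 5 and 7 UMIs or 91.6 CPM (36.8 to 189) at day 7. The day 5 library lay above all others, at 45.9 times (12.6 to 381) the level of uninjured replicate 2, and day 7 was at 0.197 times (0.0785 to 0.410) the level of day 5. A nucleus with 71 Phex UMIs held 23.2% of the day 5 total, and without it the level was 364 CPM. Dmp1, which encodes a matrix protein of osteocytes, was at 86.1 CPM (50.2 to 138) in uninjured replicate 2, had no UMI in either day 3 library, and was at 95.8 CPM (73.6 to 123) at day 5 and 65.4 CPM (21.2 to 153) at day 7. Uninjured replicate 1 held 2 Dmp1 UMIs. In day 3 replicate 2, 3 UMIs would have been 19.2 CPM, which lies below the interval of uninjured replicate 2, and the ratio to that library was 0 with an upper bound of 0.306. With the looser limits on mitochondrial and ribosomal RNA the same library was at 214 CPM, so the absence of Dmp1 at day 3 rested on the filter. It also rested on the naming of clusters, since under the main limits that library held 32 Dmp1 UMIs in other nuclei, 17 of them in IIFC-like nuclei and 15 of these in a nucleus that was also the richest of its population in Ibsp, Spp1 and Phex. Levels of Dmp1 at days 5 and 7 did not differ from uninjured replicate 2 beyond counting error, with a ratio of 1.11 (0.643 to 2.03) for day 5, but without integration uninjured replicate 2 was at 37.1 CPM and day 5 at 121 CPM. In osteoblast-like nuclei Mepe, another osteocyte gene, had 4 UMIs in uninjured replicate 2 and none in the other 5 libraries, and Sost and Dspp had none in any. Outside them, 8 Mepe UMIs lay in a single nucleus of day 3 replicate 2.

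**Figure D1:**
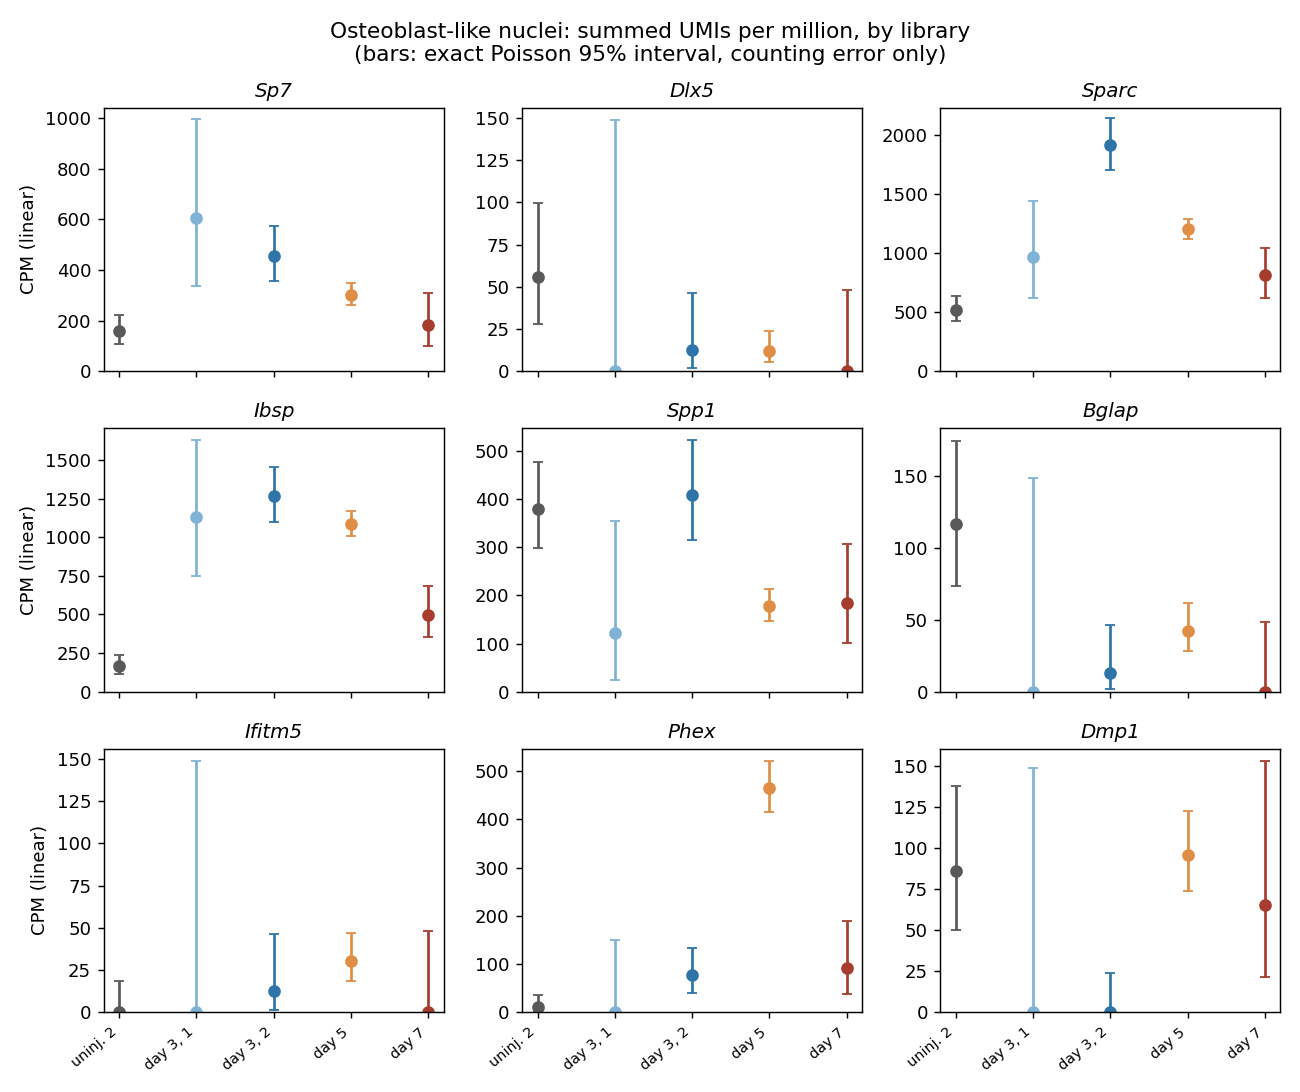
Level of each of the 9 genes in osteoblast-like nuclei (vertical axes, CPM on a linear scale, a different range for each gene) in 5 libraries (horizontal axis), with exact Poisson 95% intervals. Uninjured replicate 1, with 6 such nuclei, is left out. Sp7, Sparc and Ibsp sat above uninjured replicate 2 at days 3 and 5, Bglap and Dlx5 were highest in uninjured replicate 2, and Phex stood out at day 5.

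Shares of nuclei with a UMI gave a similar order once each nucleus was thinned to 500 UMIs. At day 5, 44.1% of 177 osteoblast-like nuclei held a Sparc UMI, 29.4% (22.8 to 36.7) an Ibsp UMI, 12.4% (7.96 to 18.2) a Phex UMI, 11.9% an Sp7 UMI and 5.08% an Spp1 UMI (exact binomial 95% intervals). In uninjured replicate 2, the shares among 109 nuclei, 6 shallower ones being left out, were 22.0% for Sparc, 8.26% (3.85 to 15.1) for Ibsp, 3.67% for Sp7, 16.5% (10.1 to 24.8) for Spp1 and 0 for Phex, where 3 nuclei would be 2.75%. Endothelial-like nuclei served as a background, in which free RNA, doublets and transcripts of their own were not told apart. At day 5 they had a median depth of 2283 UMIs against 2369 in osteoblast-like nuclei, and 1.24% of them held an Ibsp UMI, 0.830% a Phex UMI and 2.49% an Spp1 UMI after thinning. Sparc was found in 18.3% of these endothelial-like nuclei, and it is known to be expressed by endothelium. Without thinning, 59.3% of osteoblast-like nuclei at day 5 held an Ibsp UMI and 23.7% a Phex UMI.

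Several of the genes were found together in the same nuclei. At day 5, 89 of 177 osteoblast-like nuclei (50.3%) held UMIs of at least 3 of the 9 genes, against 3.72% of endothelial-like and 6.01% of IIFC-like nuclei, the injury-induced fibrogenic cells of the study, whose median depth was higher at 3998 UMIs. The share was 17.4% in uninjured replicate 2 at a median of 949 UMIs, 57.1% in day 3 replicate 2 at 3233.5 and 10.3% at day 7 at 917, and these shares follow depth as well as level. Of 42 nuclei with Phex at day 5, 33 also held Ibsp, and of 16 nuclei with Dmp1, 15 held Ibsp and 13 held Phex. Bglap was placed otherwise: of its 12 nuclei, 4 held Ibsp and 1 held Dmp1, whereas 14 of the 15 nuclei with Ifitm5 held Ibsp. Nuclei with Bglap had a median of 1759.5 UMIs and those with Ifitm5 2895, so the groups differed in depth.

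Seen across all populations, most of these genes were highest in osteoblast-like nuclei when libraries were pooled. That order held for 8 of the 9 genes, and Spp1 was the exception. The share of all genes that were highest in osteoblast-like nuclei was not counted. For Dlx5 the pooled osteoblast-like interval (11.6 to 28.7 CPM) overlapped others, such as that of tenocyte-like nuclei (5.18 to 18.6). For Ifitm5 it (12.3 to 29.8 CPM) also overlapped others, such as that of neutrophil-like nuclei (3.14 to 18.6). The order did not hold in every library. In uninjured replicate 2, Phex was at 97.6 CPM in an unnamed cluster and 10.1 CPM in osteoblast-like nuclei. At day 7 Phex was at 175 CPM in chondrocyte-like and 91.6 CPM in osteoblast-like nuclei. Dlx5 had 4 UMIs in chondrocyte-like and none in osteoblast-like nuclei at day 7, and 6 of the 7 Ifitm5 UMIs of uninjured replicate 2 lay in endothelial-like nuclei. For Ibsp the pooled level was 907 CPM in osteoblast-like, 315 CPM in chondrocyte-like and 58.5 CPM in osteoclast-like nuclei, and at most 28.3 CPM elsewhere. Sp7 was at 297 CPM in osteoblast-like and 79.8 CPM in chondrocyte-like nuclei, with non-overlapping intervals. Phex was at 292 CPM in osteoblast-like, 137 CPM in chondrocyte-like and 27.7 CPM in a cluster led by Pdzrn4, Brinp1 and Fgf7 that was left unnamed. Sparc was broad, from 1146 CPM in osteoblast-like nuclei to 88.3 CPM in macrophage-like nuclei, with IIFC-like nuclei at 622 CPM and SSPC-like nuclei (skeletal stem and progenitor cells marked by Pi16) at 512 CPM. In SSPC-like nuclei of all libraries together no UMI of Sp7, Dlx5, Phex or Dmp1 was found among 103 nuclei.

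**Figure D2:**
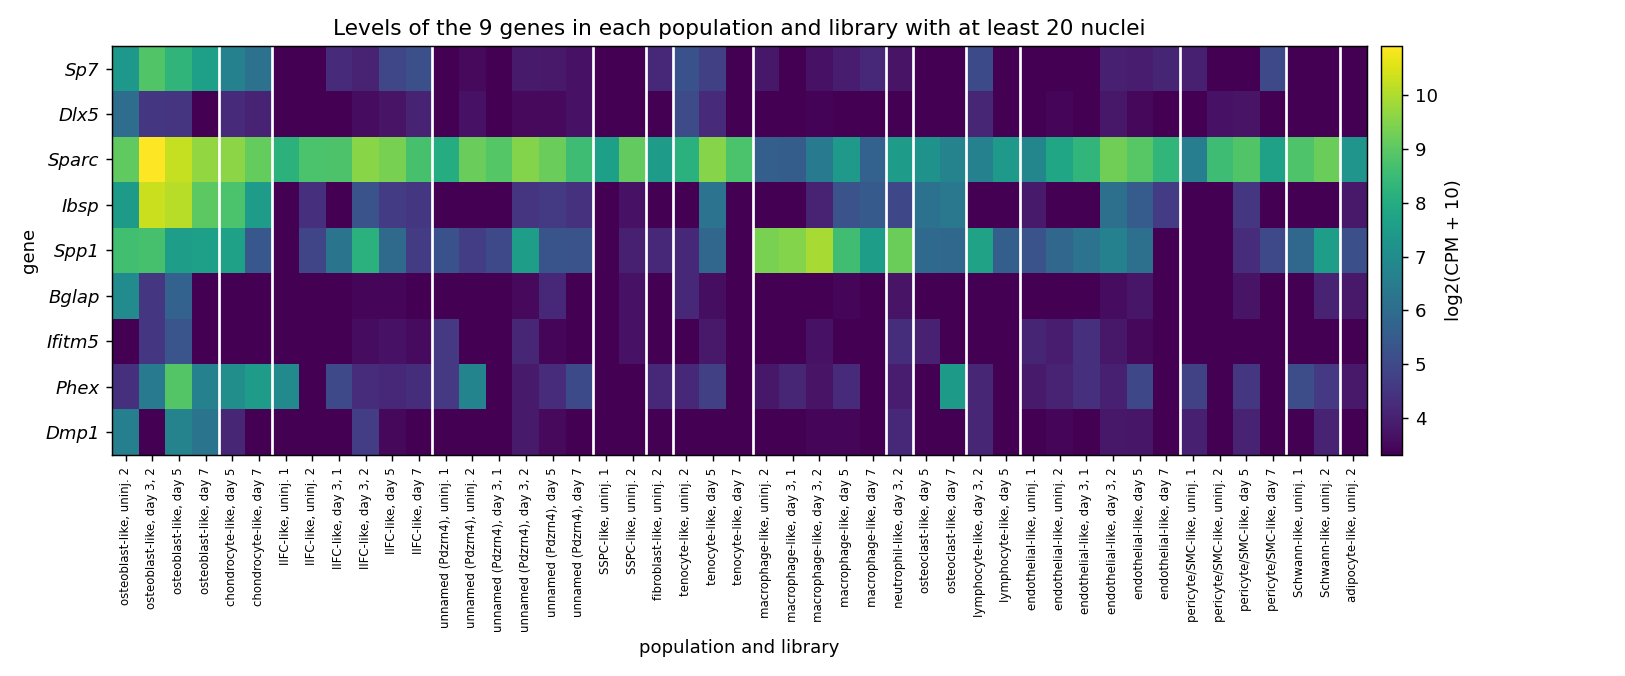
Level of the 9 genes (rows) in each population and library with at least 20 nuclei (columns), coloured by log2(CPM + 10). Osteoblast-like columns at the left hold most members, chondrocyte-like columns also hold Sp7, Ibsp and Phex, Sparc is present in all populations, and Spp1 is brightest in macrophage-like and neutrophil-like columns.

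Within the day 5 library, 7 of the 9 genes were at least 2-fold higher in osteoblast-like than in IIFC-like nuclei, against 5.12% of the 9553 genes counted (10 CPM added to each level). The ratios were 43.4 for Ibsp, 25.8 for Phex, 10.3 for Sp7, 9.44 for Dmp1, 4.87 for Bglap, 3.15 for Ifitm5 and 3.06 for Spp1, and Sparc (1.84) and Dlx5 (1.68) stayed under 2. Since the cells were grouped by expression, this is a description of the cluster and not a test. In the day 7 library 5 of the 9 genes had enough UMIs to be counted, and 4 of these were at least 2-fold higher, against 6.88% of 7141 genes. Ibsp led again with a ratio of 22.0, then Spp1 with 7.82, Sp7 with 5.34 and Phex with 5.13, while Sparc was at 1.98. Between the osteoblast-like nuclei of day 7 and day 5, 22.7% of 7996 genes counted were at least 2-fold lower at day 7 and 4.63% higher. Of the 8 members counted none was past that fold upwards and 4 were past it downwards with 10 CPM added, but 2 of these 4 had no UMI at day 7. Ibsp (ratio 0.462) and Phex (0.214) had UMIs in both libraries. Bglap and Ifitm5 were the pair without, where 3 UMIs would be 39.3 CPM. The upper bounds of their day 7 to day 5 ratios were 1.21 and 1.74, so neither was shown to be lower.

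Chondrocyte-like nuclei also carried Sp7, Ibsp and Phex. At day 5 they held Sp7 at 91.3 CPM, Ibsp at 429 CPM and Phex at 125 CPM, and at day 7 Sp7 at 61.2 CPM, Ibsp at 173 CPM and Phex at 175 CPM, with no UMI of Bglap or Ifitm5 in either of these libraries. The 84 Sp7 UMIs of day 5 lay in 51 nuclei, with at most 5 in any. The day 5 values of the other genes leaned on a single nucleus, those of Phex and Spp1 most. It held 170 of 395 Ibsp UMIs, 74 of 115 Phex UMIs and 130 of 176 Spp1 UMIs and was also the richest in Sparc and Dmp1. Without it, Ibsp was at 249 CPM, Phex at 45.4 CPM and Spp1 at 51.0 CPM. At day 7 the genes were spread more evenly: Ibsp was found in 47 of 245 nuclei and Phex in 37, 19 held both, and leaving out the nucleus with most UMIs gave 158 CPM for Ibsp and 146 CPM for Phex. In this library the level of Phex was thus 175 CPM (142 to 213) in chondrocyte-like and 91.6 CPM (36.8 to 189) in osteoblast-like nuclei, with overlapping intervals.

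In resting periosteum most Phex lay outside osteoblast-like nuclei. In uninjured replicate 2 the unnamed cluster held 66 of the 84 Phex UMIs of the library (78.6%), at 97.6 CPM and in 15 of 119 nuclei, with 14 UMIs in the richest. No Ibsp, Bglap, Ifitm5 or Dmp1 UMI was found in these 119 nuclei, and without the richest nucleus Phex was at 77.5 CPM. In uninjured replicate 1 the same cluster held 1 Phex UMI in 45 nuclei at 13.9 CPM, so the replicates differed. After fracture the cluster held Phex at 0 and 4.51 CPM at day 3, 9.38 CPM at day 5 and 22.6 CPM at day 7.

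Spp1 had several sources, and they changed with time. Macrophage-like nuclei held no Spp1 UMI of 51 in uninjured replicate 1 and 47.6% (42.3 to 52.9) of the 353 of replicate 2. At day 3 they held 82.8% (77.3 to 87.4) of 232 UMIs and 77.2% (76.0 to 78.5) of 4353 UMIs, falling to 40.8% (37.6 to 44.0) of 927 at day 5 and 28.0% (18.2 to 39.6) of 75 at day 7. The osteoblast-like share went the other way. It was 43.1% and 21.2% without injury, 1.29% and 1.47% 3 days after fracture, 12.6% at day 5 and 18.7% at day 7. The other stromal nuclei held 25.5% and 5.38% without injury, 7.76% and 9.90% at day 3, and then 37.4% at day 5 and 49.3% at day 7, where theirs was the largest share of those counted. At day 5 a single chondrocyte-like nucleus held 130 of the 347 Spp1 UMIs of these other stromal nuclei. Osteoclast-like nuclei, 3 to 29 per library, never held more than 2.67% of Spp1. In both day 3 libraries the macrophage-like share was above that of all other libraries and the osteoblast-like share below it. Shares follow the number of nuclei as well as the level, and macrophage-like nuclei made up 2.73% and 6.32% of uninjured nuclei, 38.6% and 36.3% of day 3, 23.9% of day 5 and 9.21% of day 7 nuclei.

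By level, macrophage-like nuclei held Spp1 at 655 CPM in uninjured replicate 2, 718 and 950 CPM at day 3, 375 CPM at day 5 and 178 CPM at day 7, and the 13 nuclei of uninjured replicate 1 held none. In uninjured replicate 2 a single nucleus accounted for 98 of 168 UMIs, and it was the only nucleus of that library with UMIs of at least 2 osteoblast genes and of at least 2 macrophage genes. Without it the level was 279 CPM, below both day 3 libraries, whose levels without their richest nuclei were 443 and 910 CPM. Over all libraries the cluster led by Arg1, F13a1 and Msr1 had the highest level, 1539 CPM (1469 to 1611), with Arg1 itself at 944 CPM and the heme-degrading enzyme Hmox1 at 1157 CPM. The cluster led by Fyb, Ptprc and Ms4a7 was at 660 CPM (629 to 692), that led by Ptprc, Fyb and Ccr2 at 514 CPM (470 to 560) and that led by Htr7, Dscam and Ciita at 185 CPM (147 to 230). These 4 pooled intervals did not overlap, but most counts came from day 3 replicate 2, and the order differed between libraries. In day 3 replicate 1 the Fyb, Ptprc and Ms4a7 cluster was at 883 CPM (727 to 1064) and the Arg1 cluster at 768 CPM (583 to 993). At day 5 the Arg1 cluster was highest (766 CPM), and the Ccr2 cluster (392 CPM) lay above the Fyb, Ptprc and Ms4a7 cluster (149 CPM). Neutrophil-like nuclei of day 3 replicate 2 held Spp1 at 577 CPM (519 to 641), while the other libraries had 3 to 16 such nuclei with at most 2 Spp1 UMIs. Osteoclast-like nuclei were at 320 CPM (212 to 462) in day 3 replicate 2, 50.05 CPM at day 5 and 47.8 CPM at day 7, lower than the osteoblast-like 178 CPM at day 5 (147 to 213 against 21.6 to 98.6).

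**Figure D3:**
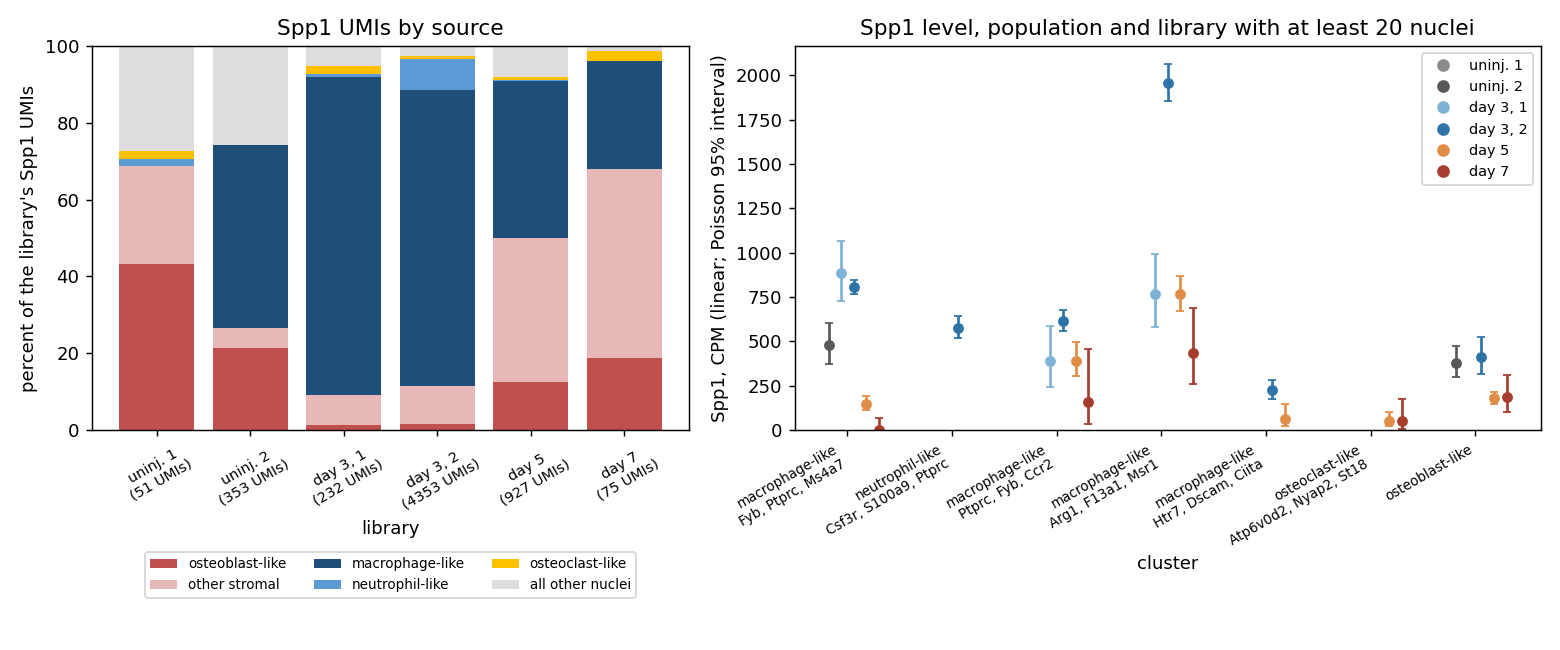
Left: percent of each library's Spp1 UMIs (vertical axis) held by each population, with the number of UMIs under each bar. Right: Spp1 level (CPM, linear, with exact Poisson 95% intervals) in immune and osteoclast-like clusters and in osteoblast-like nuclei, for libraries with at least 20 nuclei in the cluster, which leaves out uninjured replicate 1. Macrophage-like nuclei held most Spp1 UMIs at day 3, and the Arg1 cluster of day 3 replicate 2 had the highest level, 1959 CPM.

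Spp1 in fibrogenic nuclei differed between libraries and between clusters. IIFC-like nuclei held it at 65.3 CPM in day 3 replicate 1, 277 CPM in day 3 replicate 2, 51.4 CPM at day 5 and 14.7 CPM at day 7. Within day 3 replicate 2, the IIFC-like cluster led by Kcnma1, Ptprc and Tenm3 was at 982 CPM with the leukocyte gene Ptprc at 828 CPM, and the cluster led by Brinp3, Tnn and Pappa was at 159 CPM with Ptprc at 125 CPM. The cluster led by Itgbl1, Kcnma1 and Cdh11, with 6 nuclei there, went otherwise, with Spp1 at 145 CPM and Ptprc at 820 CPM. The 6 macrophage markers summed to 443 CPM in IIFC-like nuclei of that library, with none at 0, against 109 CPM in day 3 replicate 1. The part of this RNA in stromal Spp1 was not tested. Endothelial-like nuclei held Spp1 at 0 to 91.7 CPM. Of the nuclei with UMIs of at least 2 osteoblast genes but not of 2 macrophage genes, 84 of 406 held Spp1 at day 5 and accounted for 39.3% of its UMIs. Nuclei with at least 2 macrophage genes alone held 30.6%, those with both 2.59% and those with neither 27.5%. These 406 nuclei outnumber the 177 osteoblast-like ones, which held 12.6%. At day 3 the osteoblast-gene nuclei held 2.16% and 1.24% and the macrophage-gene nuclei 76.7% and 84.2%. At day 7 these shares were 38.7% and 12.0%.

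Day 3 and uninjured periosteum were made in duplicate, so the change between them was tested. The UMIs of each library's stromal nuclei were summed (SSPC-, fibroblast-, IIFC-, osteoblast- and chondrocyte-like nuclei and the unnamed cluster) and compared with edgeR's quasi-likelihood test and Benjamini-Hochberg adjustment over 9895 genes. Such a sum cannot tell more nuclei of a type from more RNA per nucleus. Nothing in the sources says that duplicates came from separate animals, so p-values measure the spread between these libraries. Of the 9 genes, 6 were expressed enough to be tested, 1 was higher at day 3 and none was lower, where 3.85% of all genes tested were higher and 5.43% lower. At an unadjusted p under 0.05 there were 2, Ibsp and Phex, and DESeq2 called none. Ibsp was at 22.3 and 23.9 CPM in the uninjured libraries and at 69.1 and 121 CPM at day 3. Both day 3 libraries lay above both uninjured ones, with a log2 difference of 1.94 ± 0.46 (SE, 2 libraries per group, edgeR adjusted p = 0.0239). Osteoblast-like nuclei held 3 of 4, 33 of 35, 28 of 28 and 198 of 236 of these Ibsp UMIs, from 6 of 116 and 115 of 390 stromal nuclei in the uninjured and 7 of 131 and 28 of 457 in the day 3 libraries. The call was lost with DESeq2 (log2 difference 1.99, adjusted p = 0.0801), without uninjured replicate 2 (2.06, edgeR adjusted p = 0.0972), without day 3 replicate 2 (1.75, edgeR adjusted p = 0.0685) and without the nucleus with most Ibsp UMIs in each library (1.84, edgeR adjusted p = 0.0769). In nuclei without a macrophage marker UMI the difference was 2.32 (edgeR adjusted p = 0.0101).

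The other tested genes did not pass the threshold in stromal nuclei. How many of all tested genes separated the groups without overlap was not counted, so separation of a gene is only described. Sp7 was at 11.2 and 22.5 CPM uninjured and at 41.98 and 44.6 CPM at day 3, without overlap (log2 difference 1.09 ± 0.56, edgeR adjusted p = 0.305). Sparc was at 217 and 520 CPM uninjured and 469 and 837 CPM at day 3, with overlap (0.70 ± 0.43, edgeR adjusted p = 0.410). Spp1 was at 195 and 64.2 CPM uninjured and 51.9 and 254 CPM at day 3, so its replicates differed more than its groups (0.28 ± 0.62, edgeR adjusted p = 0.862), and the sign turned to -0.40 without uninjured replicate 2 and to -0.99 without day 3 replicate 2. Phex pointed down, at 22.3 and 47.1 CPM uninjured and 12.3 and 12.8 CPM at day 3, without overlap (-1.71 ± 0.61, edgeR adjusted p = 0.120), and 66 of the 69 Phex UMIs of uninjured replicate 2 came from the unnamed cluster. Dmp1 was at 11.2 and 11.6 CPM uninjured and 0 and 10.3 CPM at day 3, on 2, 17, 0 and 20 UMIs (-0.86 ± 0.88, edgeR adjusted p = 0.661). The median log2 difference of the 6 genes was 0.49, beside 0.00 over all genes tested. Dlx5, Bglap and Ifitm5 had at most 24 UMIs in any of these sums and were not tested. When all nuclei were summed instead, Spp1 was also higher (log2 difference 2.51, edgeR adjusted p = 0.0268), in the presence of the macrophage-like nuclei.

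**Figure D4:**
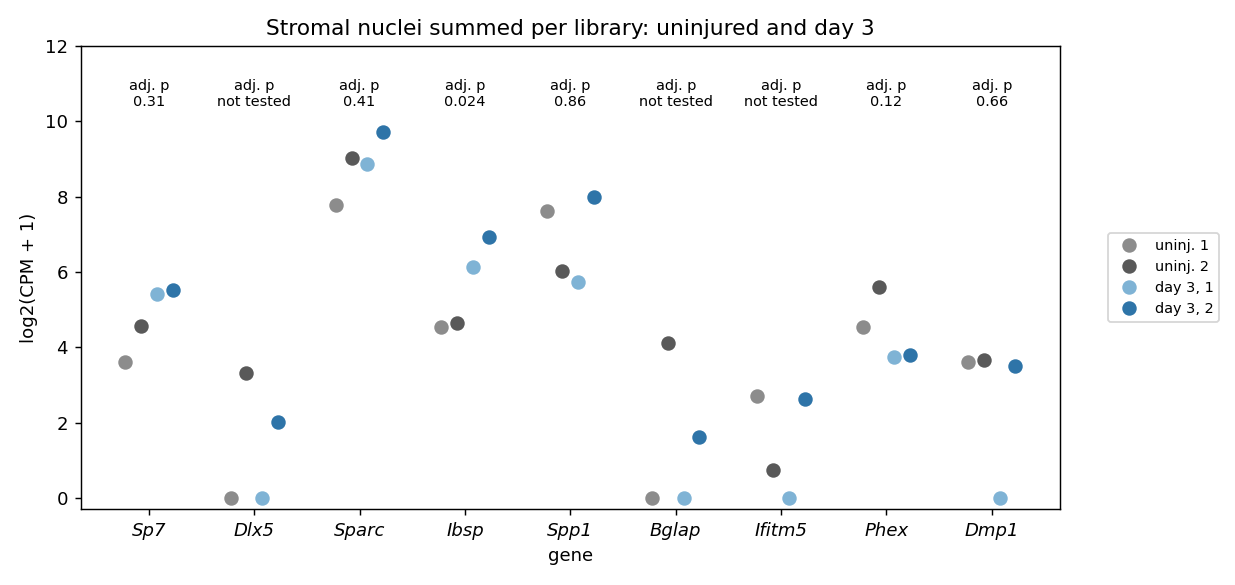
Level of the 9 genes in stromal nuclei summed per library (vertical axis, log2(CPM + 1)) in the 2 uninjured and 2 day 3 libraries, with the adjusted p of edgeR's quasi-likelihood test above each gene. Of the tested genes, Ibsp alone passed the threshold of 0.05.

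In macrophage-like nuclei, tested in the same way over 4807 genes, 0.0208% of genes were higher and 0.603% lower at day 3, and neither of the 2 members tested was among them. Spp1 was at 0 and 655 CPM uninjured and at 718 and 950 CPM at day 3 (log2 difference 1.12 ± 1.05, edgeR adjusted p = 0.999). The edgeR count of members with an unadjusted p under 0.05 was 0 here, and DESeq2 called 0. The library with no Spp1 had 13 macrophage-like nuclei. Of 7 macrophage genes reported with Spp1, all tested, edgeR and DESeq2 called none, and 2 had an unadjusted p under 0.05. Arg1, an arginase of repair macrophages, came nearest (log2 difference 3.12, edgeR adjusted p = 0.0712).

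The wider pathway was read from lists around these genes in the stromal test, and where edgeR called none of a list DESeq2 called none either. Of 8 transcription factors of the osteoblast lineage, 4 were tested and none was called (2 at an unadjusted p under 0.05), with Runx2, the master regulator upstream of Sp7, at a log2 difference of 1.42 (edgeR adjusted p = 0.175) and Atf4 at 1.12 (edgeR adjusted p = 0.123). Of 5 SIBLING genes, 3 were tested and 1, Ibsp, was higher. None of the 3 osteocalcin genes was tested. In the SPARC family, 5 of 7 genes were tested and none was called (1 at an unadjusted p under 0.05), with Sparcl1 lowest in p (log2 difference -1.82, edgeR adjusted p = 0.0947). Of 6 osteocyte genes 3 were tested and of 7 mineralization genes 6 were, and none was called, with 1 in each list at an unadjusted p under 0.05. In mineralization the smallest adjusted p was that of Enpp1, which makes the mineralization inhibitor pyrophosphate (log2 difference 1.07, edgeR adjusted p = 0.232).

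All 8 genes of type I collagen and its processing were tested, with a median log2 difference of 1.21, beside 0.00 over all genes. In all, 1 passed, Lox, which cross-links collagen, at 33.5 and 32.8 CPM uninjured and 93.8 and 156 CPM at day 3 (log2 difference 1.84, edgeR adjusted p = 0.0186), and DESeq2 called none. Fkbp10, a collagen chaperone, was at 1.33 (edgeR adjusted p = 0.0884) and Col1a1 at 1.13 (edgeR adjusted p = 0.138). Among 7 osteopontin receptor genes 6 were tested and 2 were lower, against 1 with DESeq2: Itga9 (-1.72, edgeR adjusted p = 0.0100) and Itgb3 (-2.65, edgeR adjusted p = 0.0175), integrin subunits that bind Spp1. Cd44, another receptor, was at 1.41 (edgeR adjusted p = 0.0758). Macrophage markers were higher in the same sums, 4 of the 4 tested, among them Mrc1 (3.85, edgeR adjusted p = 0.00702) and Csf1r (3.56, edgeR adjusted p = 0.0232), as was 1 of 4 tested macrophage genes reported with Spp1, Hmox1 (5.34, edgeR adjusted p = 0.00219). The 6 macrophage markers summed to 5.58 and 13.0 CPM in uninjured and 106 and 396 CPM in day 3 stromal nuclei, with 5 and 1 of them at 0 in the uninjured libraries and none at day 3. Of the osteoclast markers only Ctsk was tested (-0.18, edgeR adjusted p = 0.918), and of 4 genes of RNA from other tissue 2, Ttn and Neb, were tested and none was called, with none in either list at an unadjusted p under 0.05.

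Many levels leaned on few nuclei. In osteoblast-like nuclei of day 5, 11 of 177 nuclei held at least 50% of Ibsp UMIs and 4 held at least 50% of Phex UMIs, whereas for Sparc it took 26. At day 7 a nucleus with 17 of 38 Ibsp UMIs was also the richest in Sp7 and Spp1, and without it Ibsp was at 294 CPM and Spp1 at 84.0 CPM. The order of Ibsp in osteoblast-like nuclei, with uninjured replicate 2 lowest, day 7 next and days 3 and 5 highest, was the same with and without the richest nucleus of each library.

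**Figure D5:**
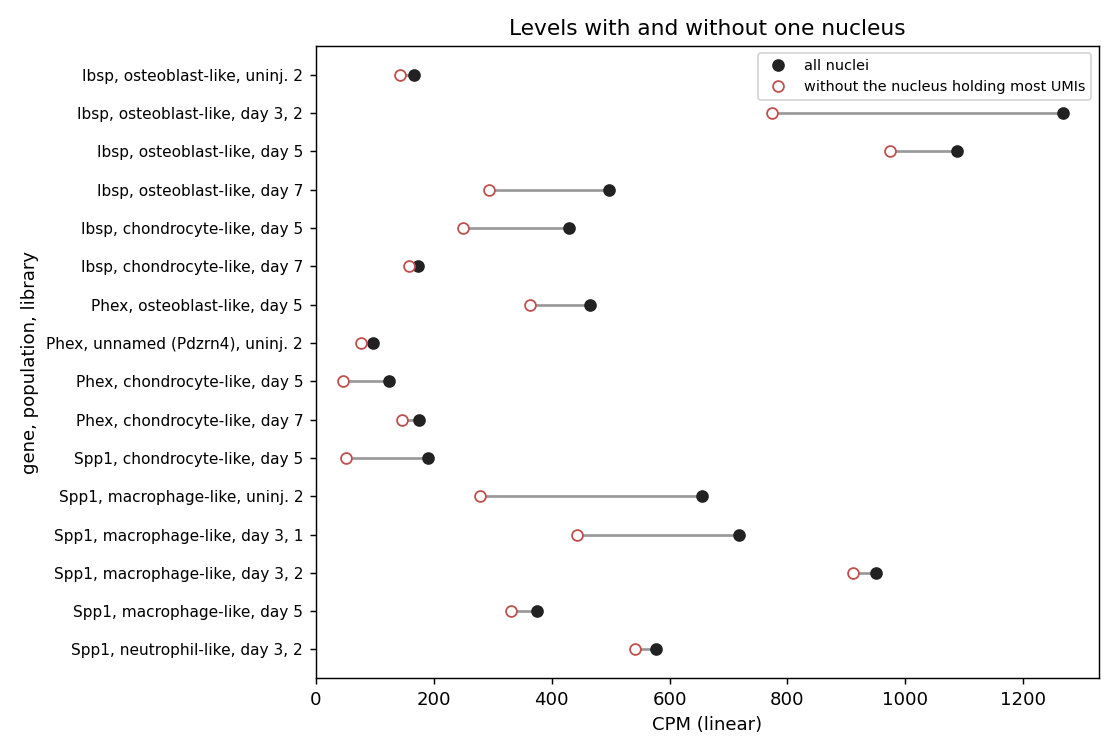
Level (horizontal axis, CPM, linear) of Ibsp, Phex and Spp1 in a population and library (rows) with all nuclei (filled) and without the nucleus that held most UMIs of the gene (open). Among the rows drawn, the longest shifts were Ibsp in day 3 replicate 2 osteoblast-like nuclei, from 1267 to 774 CPM, and Spp1 in macrophage-like nuclei of uninjured replicate 2, from 655 to 279 CPM.

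Over 47 points (a population in a library, with at least 20 nuclei), the genes whose log2(CPM + 10) was most like each member were ranked by Pearson's r among 7506 genes. The points share libraries and depths, so these are descriptions. Ibsp was most like Slc13a5, a citrate transporter (r = 0.89), Slc8a3 (0.83) and Sp7 (0.82). Slc13a5 also led for Sp7 (0.82) and for Phex (0.74). Dmp1 was most like Ostn (0.71), which encodes osteocrin, and Bglap most like Intu (0.75) and Ostn (0.75), with Dlx5 again closest to Intu (0.73). Spp1 stood apart, with Pstpip2 (0.82), C1qb (0.82) and Myo1f (0.80), genes of myeloid cells, while its r with Ibsp was 0.40. Sparc was close to Fkbp9 (0.81) and Nav3 (0.79), and by Spearman's rho Fkbp9 also came first (0.87). Ifitm5 had no close match, with 0.52 for Rps24 as its highest, at a mean level of 2.68 CPM. Among the members, the closest pairs were Sp7 with Ibsp (0.82), Dlx5 with Bglap (0.76) and Bglap with Dmp1 (0.70).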

How the data were processed

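Nuclei of 6 libraries (uninjured 2, day 3 2, day 5 1, day 7 1) were grouped by their labels. The authors deposited raw UMI counts per gene and barcode from 10x 3′ libraries, made by Cell Ranger 6.0.0 (uninjured replicate 1, day 5, day 7) or 7.1.0 (the other 3) per the file headers, with intronic and exonic reads on mm10, so genes with long introns gain counts. Ratios of day 5 to uninjured replicate 2 thus compare 2 versions, and these libraries listed 32287 and 31055 genes. The effect of this on the ratios was not tested. A barcode was kept (8205 in all) when it held 200 to 5000 genes and less than 2% of mitochondrial and 1.5% of ribosomal UMIs, muscle nuclei were removed (6496), and 6418 nuclei were analysed. Scanpy 1.11.5 marked 492 doublets, which were kept in the main values. Seurat 5.3.0 integrated and clustered nuclei (20 components, resolution 1.3) without the 9 genes or the marker genes, and clusters were named from at least 3 markers. Sums per library, scaled to CPM, carry exact Poisson intervals and shares exact binomial ones, both covering counting error only. The floor is 3 counts.

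edgeR 4.0.16 (quasi-likelihood, TMM, low-count filter, Benjamini-Hochberg, adjusted p under 0.05) compared uninjured and day 3, with R 4.3.3, and was tested on simulated counts; DESeq2 1.42.0 was an alternative. Days 5 and 7, with 1 library each, were not tested. Named genes are the 9 members, at most 4 genes of each of 12 lists, those with the smallest adjusted p in the stromal test, and the 3 genes most like each member; others, such as Arg1, were named after their values were seen. The members, markers and lists were chosen with earlier results of these data known. Promoters came from RefSeq (GRCm38.p6) and gene models from GENCODE vM21. Alternatives were clustering without integration, at resolution 0.8 or with these genes kept, doublets left out, looser limits (5% mitochondrial UMIs, no ribosomal limit), thinning depth, pseudocount, normalization, filter, and leaving out each replicate. Some genes covered by these rules are not reported here.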

Additional observations from a re-analysis of the deposited data

How the results depend on the processing

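Stromal Ibsp was higher at day 3 under all 16 alternatives (log2 1.73 to 2.64, adjusted p 0.00298 to 0.0972) and was called in 12. DESeq2 gave 1.99, leaving out 1 library 1.75 to 2.22, and leaving out the nucleus with most Ibsp UMIs in each library, an alternative chosen after seeing the data, 1.84. Members called higher were 0 with DESeq2, without that nucleus or without osteoblast-like nuclei, 2 with all nuclei summed and 0 to 1 without 1 library. All genes called higher were 220 with DESeq2, 657 without a filter and 249 to 528 without 1 library, and genes called lower were 345 with DESeq2. Stromal Spp1, not called, turned to -0.028 at resolution 0.8 and -0.074 without the unnamed cluster, and ranged from -0.99 to 1.13 without 1 library, with -0.40 without uninjured replicate 2. Without integration, with members and markers kept among the features, and under the looser limits, the macrophage-like share of day 3 replicate 2 Spp1 was 84.4%, 82.1% and 81.7%, day 5 osteoblast-like Ibsp was 1297, 1221 and 1406 CPM, and Phex 585, 527 and 596 CPM. The share of day 5 osteoblast-like nuclei with Ibsp was 43.8% at 1000 UMIs and 59.3% unthinned. Macrophage-like Spp1 was never called in 13 alternatives (log2 0.43 to 13.1, the highest without uninjured replicate 2, which leaves the library with no Spp1 UMI). The causes of these shifts were not tested. Depth limits Bglap, Dlx5 and Ifitm5 most, and day 5, day 7 and osteoblast-like nuclei of uninjured bone have no usable replicate. No paired analysis was possible because the sources link no uninjured library to a day 3 library. The labels give no replicate numbers, and those used here only tell duplicate libraries apart.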
